A study of Mus musculus with 550 samples.

Results

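The genes named for developmental pluripotency association, Dppa2, Dppa4, Dppa3 and Dppa5a, were followed in single cells of mouse embryoid bodies. They were chosen by name, and all 4 were found among the 55228 gene names of the count table. Embryoid bodies (EBs) are floating aggregates in which embryonic stem cells (ESCs) differentiate once they are placed in low-attachment dishes without leukemia inhibitory factor. The ESCs were of the E14 line from the 129/Ola strain and had 1 of 3 genotypes: wild type (WT), homozygous for loss of the de novo DNA methyltransferase gene Dnmt3a (Dnmt3a -/-, 3AKO), or homozygous for loss of its relative Dnmt3b (Dnmt3b -/-, 3BKO). Cells of each genotype were sampled on day 3 and day 9, which gives 6 groups. The study used more than 1 clone of each knockout, but the labels do not say which cell came from which clone, so each group was handled as 1 sample and no difference below has a replicate check.

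Of 550 cells, 486 passed the filters on reads, genes and mitochondrial share. The loss was uneven at day 9: 67 of 93 3BKO cells were kept, against 89 of 91 in WT and 88 of 93 in 3AKO. Every group was split over a pair of library batches, which follow the plate columns, and the cells of 1 group in 1 batch were summed and are called a library here. The 12 libraries held 21 to 61 cells and 8071118 to 22867811 assigned reads. Levels are CPM, the counts scaled to the reads of a library, and ratios between groups are log2 ratios of CPM + 1. Intervals are exact Poisson (levels) or Clopper-Pearson (shares of cells) intervals at 95% and cover counting error only. The Poisson intervals leave out the spread between cells. They may be too narrow even for counting error, because copies made by PCR could not be told from separate molecules. Where a count was 0, the limit given is the level or share that 3 counts would make. A gene entered a comparison, and is called tested, if in each batch 1 of the groups or both had a read of it in 20% of cells or more, and it was called if its log2 ratio was at least 1 in size with the same sign in both batches.

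DPPA2 and DPPA4 are DNA-binding proteins of the SAP-domain family that act as a pair in ESCs, where they keep developmental gene promoters accessible and activate Dux, an early switch of the genes used in the 2-cell embryo. DPPA3, also known as Stella, guards the methylation pattern of the egg and early embryo and binds UHRF1, the protein that brings the maintenance methyltransferase DNMT1 to newly copied DNA. DPPA5A is an RNA-binding protein with a KH domain and is very abundant in pluripotent cells. All 4 genes mark the early embryo and ESCs, and several are silenced with DNA methylation when cells differentiate.

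In the GENCODE vM21 annotation (GRCm38), Dppa4 (chr16:48283733-48294237) and Dppa2 (chr16:48303908-48319723) lay on the plus strand of chromosome 16, 9671 bases apart. Dppa3 (chr6:122626410-122630272, plus strand) lay within 100 kb of Nanog and Gdf3, and Dppa5a (chr9:78367052-78368177, minus strand) lay 7932 bases from Ooep, a relative in the same cluster of oocyte genes. No exon of the 4 genes overlapped an exon of another gene. The related gene Dppa1 and the pseudogenes Dppa3-ps and Dppa5b had 0 reads, and the pseudogene Dppa5c had 7 reads in 6 of the kept cells, against 740007 reads of Dppa5a.

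Dppa5b and Dppa5c were identical to each other over their 348 bases and shared 96.3% of the aligned bases with Dppa5a. The coding stretch of Dppa5a of read length (75 bases) that differs from both in the most positions, 5, is shown in the sense direction from the annotated transcripts, since a read from it can be told from the copies. It covers chr9:78367766-78367840 on the minus strand, in the middle exon, and capitals mark the bases that differ.
Dppa5a: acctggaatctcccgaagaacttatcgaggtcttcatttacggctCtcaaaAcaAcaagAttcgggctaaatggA
Dppa5b and Dppa5c: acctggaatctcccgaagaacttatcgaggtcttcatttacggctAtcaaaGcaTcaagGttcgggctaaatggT

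Other stretches were less distinct. Of the 75-base windows in the transcripts of each gene, 19.4% for Dppa5a, 25.7% for Dppa2, 20.1% for Dppa4 and 3.79% for Dppa3 were also found in transcripts of other gene names. Reads that mapped to several places had been left out by the authors, so levels may be too low by such reads, in all groups alike as far as the same windows are used.

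Per length, Dppa5a stood far above the other members, at 3529 to 15669 RPKM (CPM per kilobase of exon) over the 12 libraries. Dppa4 was at 65.5 to 153.2 RPKM and Dppa2 at 29.3 to 152.7 RPKM. Dppa4 was higher than Dppa2 in 9 of the 12 libraries, among them all 6 of batch 1, and Dppa2 was higher in the batch 2 libraries of WT day 3, 3BKO day 3 and 3BKO day 9. Dppa3 was the lowest member in every library, at 0 to 22.1 RPKM.

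**Figure D1:**
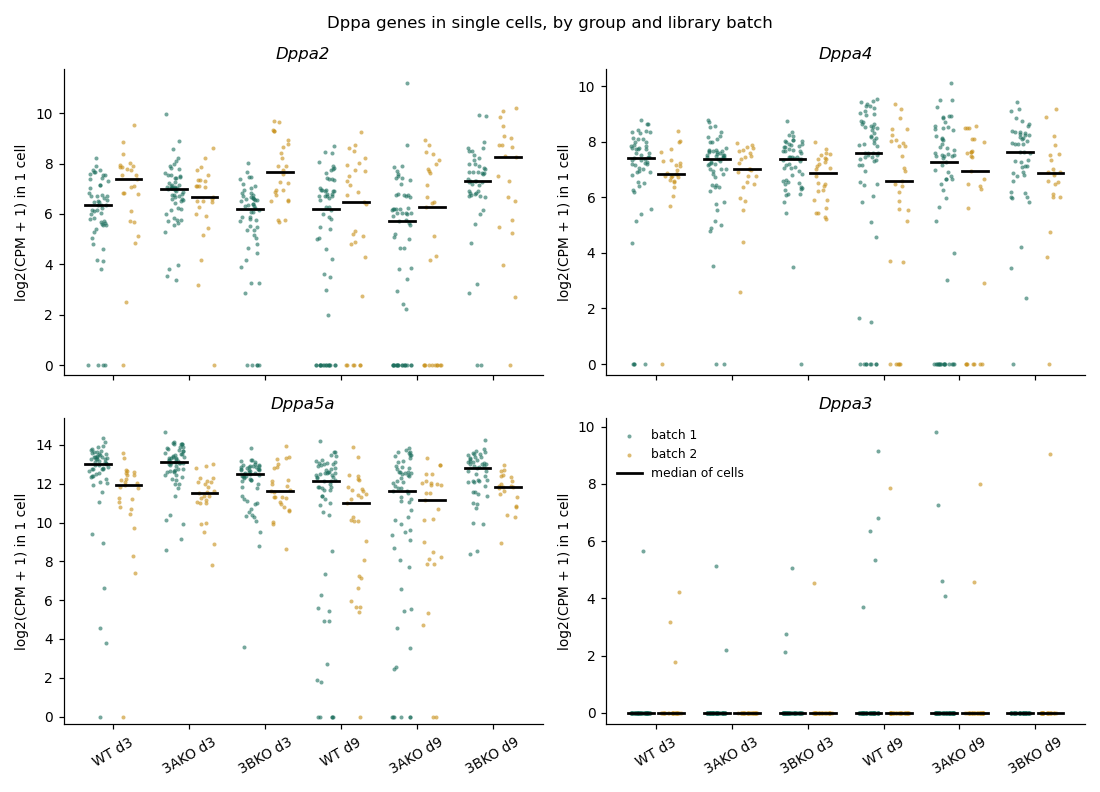
Level of each Dppa gene in each of the 486 kept cells, as log2(CPM + 1) (vertical axis), by genotype and day (horizontal axis) and library batch (colour), with black bars at the median of the cells. Dppa2 medians are highest in 3BKO day 9 cells (158.3 CPM in batch 1 and 306.4 CPM in batch 2), Dppa5a is at 0 or near it in part of the WT and 3AKO day 9 cells, and Dppa3 is seen in 23 cells.

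Of the 3 tested members, Dppa2 differed most between genotypes at day 9. In 3BKO its level was 216.8 CPM in batch 1 and 373.6 CPM in batch 2. In WT it was 89.5 and 135.7 CPM, and in 3AKO 121.0 and 129.7 CPM. Both 3BKO libraries thus lay above all 4 other day 9 libraries. Over both batches the level was 301.0 CPM (294.8 to 307.2) in 3BKO, 105.4 CPM (102.0 to 108.8) in WT and 124.7 CPM (120.2 to 129.2) in 3AKO.

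Against WT, Dppa2 in 3BKO was higher by a log2 ratio of 1.51 (1.43 to 1.58), with 1.27 in batch 1 and 1.45 in batch 2. The value over both batches lay above that of either batch, and the batches did not enter the sums in equal shares (read totals are given with Dppa4 below). Dppa2 was the 1 member called in 3BKO against WT at day 9, out of 3 tested. Among all 9235 genes tested in this comparison, 2.86% were called higher and 4.98% lower. The median log2 ratio of the 3 tested members was 0.44, beside -0.08 over all genes tested.

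The difference was spread over the cells. A read of Dppa2 was found, after each cell was thinned to 50000 reads, in 89.6% of 3BKO day 9 cells (79.7 to 95.7). In WT the share was 68.5% (57.8 to 77.97) and in 3AKO it was 57.95% (46.95 to 68.4). Without thinning these shares were 95.5%, 75.3% and 69.3%. Of the 67 3BKO cells, 53 (79.1%, 67.4 to 88.1) were above the WT median of their batch, against 30 of 88 3AKO cells (34.1%, 24.3 to 44.97). The single-cell median was 158.3 CPM in batch 1 and 306.4 CPM in batch 2 for 3BKO, 72.6 and 88.2 CPM for WT, and 51.2 and 76.3 CPM for 3AKO.

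Between 3AKO and WT at day 9, no member was called (1.07% of 9201 genes tested were higher and 1.59% lower). Dppa2 had a log2 ratio of 0.24 (0.14 to 0.34) with opposite signs in the batches, 0.43 in batch 1 and -0.06 in batch 2. One 3AKO cell of batch 1, at 2367 CPM, held 45.9% of that library's Dppa2 reads, and the level without it was 67.002 CPM. Leaving out the cell with the most reads in each library turned the ratio to -0.12.

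Between 3BKO and 3AKO at day 9, again no member was called (4.56% of 9152 genes were higher and 4.91% lower). Dppa2 was at a log2 ratio of 1.26 (1.18 to 1.35), with 0.84 in batch 1, below the size needed for a call, and 1.52 in batch 2. It was called once the cell with the most reads was left out of each library, with a log2 ratio of 1.59 over both batches. These day 9 comparisons share their libraries and are not independent of each other.

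Dppa4, the binding partner of DPPA2 and its neighbour on the chromosome, did not follow it. In batch 1 the day 9 level was 254.6 CPM in WT, 210.0 CPM in 3AKO and 236.6 CPM in 3BKO, and in batch 2 it was 141.1, 142.0 and 132.7 CPM. The genotypes overlapped, and batch 1 was above batch 2 in each. 3BKO stood at a log2 ratio of -0.10 to WT in batch 1 and of -0.09 in batch 2. The value over both batches, -0.25 (-0.32 to -0.18), lay outside both, and the batches did not enter the sums in equal shares: batch 2 gave 16249575 of 30287278 reads in 3BKO but 11953550 of 34821361 in WT. Thinned cells had Dppa4 reads in 89.6% (79.7 to 95.7) for 3BKO, 82.02% (72.5 to 89.4) for WT and 70.5% (59.8 to 79.7) for 3AKO.

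Dppa5a was higher in 3BKO than in WT at day 9 in both batches but below the size of a call. Its level was 6630 CPM in batch 1 and 3701 CPM in batch 2 of 3BKO, 4524 and 2184 CPM in WT, and 4313 and 2959 CPM in 3AKO. Within each batch 3BKO stood above both other genotypes, while the ranges over batches overlapped. The log2 ratio to WT was 0.44 (0.43 to 0.46), with 0.55 in batch 1 and 0.76 in batch 2, and that to 3AKO was 0.43, with 0.62 and 0.32. The value to WT over both batches lay below that of either batch, and the batches did not enter the sums in equal shares.

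The genotypes differed in how many cells had little Dppa5a. The lowest of the 67 kept 3BKO day 9 cells was at 326 CPM. Below that level lay 23 of 89 WT cells (25.8%) and 23 of 88 3AKO cells (26.1%). Cells removed by the filters, which took more of the 3BKO cells, do not enter these shares. Cells below 100 CPM came to 21.3% in WT, 19.3% in 3AKO and 0% in 3BKO, where 3 of 67 cells, the limit for a count of 0, would be 4.48%. At day 3 they came to 6.33% in WT and, by label, to 0% in 3AKO and 1.25% in 3BKO.

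**Figure D2:**
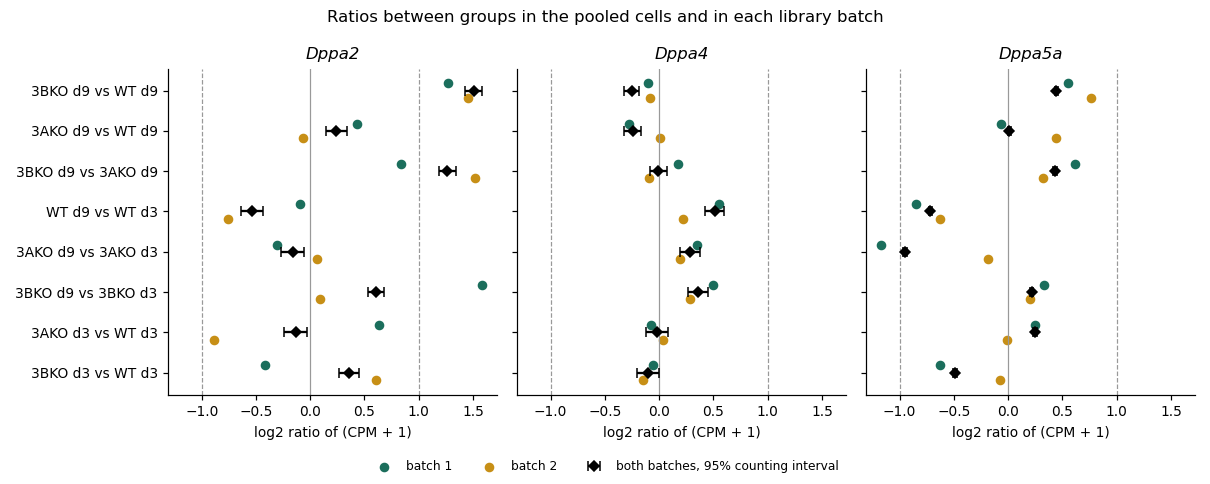
Log2 ratio of (CPM + 1) (horizontal axis) of Dppa2, Dppa4 and Dppa5a in the 8 comparisons of groups (vertical axis). Diamonds with bars are the value over both batches with its 95% counting interval, circles are each batch alone, and dashed lines mark the size needed for a call. Dppa2 in 3BKO against WT at day 9 is past the line in both batches, Dppa4 stays between -0.28 and 0.55 in every batch, and the batches of Dppa2 lie on opposite sides of 0 in both day 3 comparisons.

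From day 3 to day 9 Dppa5a and Dppa4 moved in opposite directions in WT. Dppa5a was at 8174 CPM (batch 1) and 3386 CPM (batch 2) in WT on day 3, and the day 9 levels given above were lower by log2 ratios of -0.85 and -0.63. Dppa4 was at 173.5 and 121.2 CPM on day 3 and was higher on day 9 by 0.55 and 0.22. Dppa2 was at 95.7 and 229.8 CPM on day 3, and its ratio was -0.10 in batch 1 and -0.76 in batch 2. None of the 3 tested members was called (5.25% of 10162 genes were higher and 2.19% lower).

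The median log2 ratio over all genes tested was 0.19 in this WT comparison. Relative to the typical gene, the over-batch ratio of Dppa4, 0.51, was thus smaller, and those of Dppa5a, -0.72, and Dppa2, -0.54, were larger in size. By batch the median was 0.16 and 0.22, beside 0.55 and 0.22 for Dppa4. In batch 2 Dppa4 therefore did not rise above the typical gene. With TMM factors the median over both batches was -0.02, and the calls over all genes went from 533 higher and 223 lower to 308 and 387. The split moved in the knockouts as well, from 256 higher and 309 lower to 193 and 411 in 3AKO and from 680 and 561 to 521 and 728 in 3BKO. Under TMM factors Dppa4 kept an over-batch ratio above 0 and Dppa5a one below 0 in WT and 3AKO.

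In 3AKO, Dppa5a was at 9699 and 3369 CPM on day 3, and day 9 was lower by -1.17 in batch 1 and -0.19 in batch 2. Dppa4 was at 164.7 and 124.3 CPM on day 3 and higher on day 9 by 0.35 and 0.19. Dppa2 was at 149.5 and 124.0 CPM on day 3, with ratios of -0.30 and 0.06. No member was called (2.57% of 9945 genes were higher and 3.11% lower).

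By label, all 3 tested members in 3BKO had day 9 to day 3 ratios above 0 in both batches, but none was called (6.77% of 10042 genes were higher and 5.59% lower). Dppa2 was at 71.6 and 350.1 CPM on day 3, which gives ratios of 1.59 in batch 1 and 0.09 in batch 2. Dppa4 was at 167.1 and 108.9 CPM, with ratios of 0.50 and 0.28, and Dppa5a at 5290 and 3217 CPM, with ratios of 0.33 and 0.20. For both knockouts, the ratios between days and the lack of calls hold only for the labels as given. In batch 2, the day 3 library labelled 3AKO had Dppa2 at 124.0 CPM, beside 373.6 CPM in 3BKO on day 9. Ratios with the day 3 labels exchanged were not computed. The day 3 side of the batch 2 values for both knockouts rests on labels that the targeted gene contradicts, as follows.

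Dnmt3a, the targeted gene of 3AKO, was at 455.2 and 267.5 CPM in the WT libraries of day 3 and at 25.8 CPM in the batch 1 library labelled 3AKO. In the batch 2 libraries it was at 334.5 CPM where the label was 3AKO and at 12.8 CPM where the label was 3BKO. Dnmt3b, the targeted gene of 3BKO, was at 600.1 and 523.2 CPM in WT, at 166.7 and 185.0 CPM in the libraries labelled 3BKO and at 260.9 and 85.1 CPM in those labelled 3AKO. The libraries labelled 3BKO in batch 1 and 3AKO in batch 2 came from plate 210, and those labelled 3AKO in batch 1 and 3BKO in batch 2 came from plate 211. At day 9 the targeted genes went with the labels: Dnmt3a was at 26.1 and 23.9 CPM in 3AKO against 176.8 and 144.0 CPM in WT, and Dnmt3b at 15.9 and 16.8 CPM in 3BKO against 154.9 and 188.6 CPM. Dnmt3a was also called lower in 3BKO at day 9, at 84.1 and 44.8 CPM. Reads were counted over the whole gene and need not come from the deleted stretch.

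By label, Dppa2 at day 3 differed from WT in opposite directions in the batches, and no member was called in either knockout. 3AKO had a log2 ratio to WT of 0.64 in batch 1 and -0.88 in batch 2 (0.869% of 10362 genes were called higher and 0.347% lower). 3BKO had -0.41 and 0.61 (0.664% of 10236 genes were higher and 0.42% lower).

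By plate, the order of Dppa2 was the same in both batches. Plate 211 was highest (149.5 and 350.1 CPM), plate 209, which held WT, was between (95.7 and 229.8 CPM), and plate 210 was lowest (71.6 and 124.0 CPM). Against plate 209, the log2 ratio was 0.64 and 0.61 for plate 211 and -0.41 and -0.88 for plate 210. WT was on plate 209 alone, so WT and plate cannot be told apart. By label, plates 210 and 211 each held both knockouts, 1 in each batch. With the batch 2 knockout labels exchanged, each plate would hold 1 genotype, and plate and genotype could not be told apart.

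The other members showed no such order. Dppa4 was at log2 ratios of -0.15 to 0.04 to the WT library of the same batch. Dppa5a in batch 1 was lower than WT in the library labelled 3BKO (-0.63) and higher in that labelled 3AKO (0.25), and in batch 2 both ratios were small (-0.07 and -0.01).

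**Figure D3:**
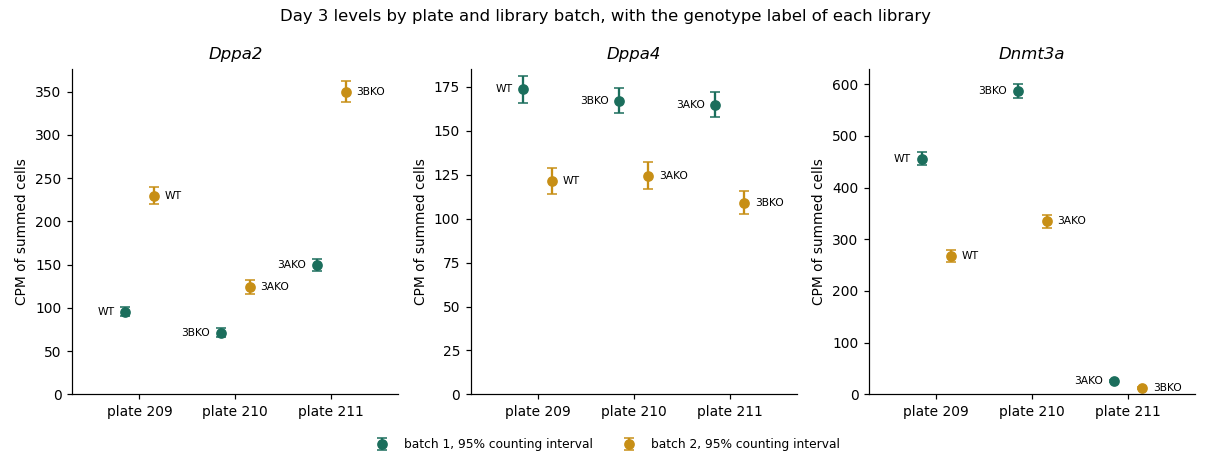
Level of Dppa2, Dppa4 and Dnmt3a at day 3 in CPM of the summed cells (vertical axes, from 0) on each plate (horizontal axes), with 95% counting intervals, colours for the batches and the genotype label beside each point. Dppa2 is highest on plate 211 and lowest on plate 210 within each batch, Dppa4 differs by batch but not by plate, and Dnmt3a is near 0 on plate 211 under both labels.

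The batches themselves differed for each tested member. Dppa4 was higher in batch 1 than in batch 2 in all 6 groups, by log2 ratios of 0.40 to 0.85, and so was Dppa5a, by 0.54 to 1.53. Dppa2 was lower in batch 1 in 5 of the 6 groups, the exception being the day 3 group labelled 3AKO. The batches of that group lay on different plates. Within a plate, Dppa2 was lower in batch 1 on all 6 plates, with overlapping counting intervals on plate 236 (121.0 and 129.7 CPM). Mitochondrial reads moved with the batches too, at medians of 3.58% to 6.31% of the reads of a cell in batch 1 and 9.09% to 13.5% in batch 2. Their part in the batch differences was not tested.

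Dppa3 was rare. It had 1141 reads in 23 of 486 cells and passed the detection filter in no comparison. On day 9 its level was 9.58 CPM in batch 1 and 12.1 CPM in batch 2 of WT, 17.3 and 17.7 CPM in 3AKO, and 0 and 19.7 CPM in 3BKO. Each of these sums rested on few cells: all 320 reads in 3BKO came from 1 cell, which was 1 of 21 in batch 2, and in batch 1, with a read in 0 of 46 cells, the limit of 3 cells would be 6.52%. In 3AKO, 77.6% and 93.1% of the Dppa3 reads of a library came from 1 cell, and in WT 49.3% and 100%.

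On day 3 Dppa3 had 23 reads in 4 WT cells, 8 reads in 2 cells labelled 3AKO and 10 reads in 4 labelled 3BKO. The highest single-cell levels were 49.9 CPM on day 3 and 900.1 CPM on day 9, in a 3AKO cell. A read was found in 6 of 89 WT cells, 6 of 88 3AKO cells and 1 of 67 3BKO cells on day 9. After thinning, these shares were 4.49% (1.24 to 11.1), 4.55% (1.25 to 11.2) and 1.49% (0.038 to 8.04), which overlap at this depth. All 23 cells with Dppa3 also had reads of Dppa2, Dppa4 and Dppa5a.

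Within single cells, Dppa2, Dppa4 and Dppa5a tended to be present or absent together at day 9 in WT and 3AKO. After thinning, all 3 genes had a read in 83.6% of the cells in 3BKO (72.5 to 91.5), in 64.04% in WT (53.2 to 73.9) and in 55.7% in 3AKO (44.7 to 66.3). None of the 3 had a read in 5 WT cells and 10 3AKO cells, and in 0 of 67 3BKO cells. At day 3 all 3 were found in 84.8%, 89.2% and 86.2% of the WT cells and the cells labelled 3AKO and 3BKO.

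Across cells of 1 library, the Pearson r of Dppa4 and Dppa5a on log2(CPM + 1) was 0.71 (n = 60) and 0.46 (n = 29) in WT at day 9 and 0.76 (n = 61) and 0.84 (n = 27) in 3AKO. In 3BKO it was 0.07 (n = 46) and 0.11 (n = 21). Dppa2 and Dppa5a gave 0.71 and 0.52 in WT, 0.74 and 0.69 in 3AKO, and 0.04 and 0.07 in 3BKO. Dppa2 and Dppa4 gave 0.68 and 0.64 in WT, 0.71 and 0.73 in 3AKO, and 0.45 and 0.18 in 3BKO. Cells of 1 library share preparation and sequencing depth, and cells at 0 for both genes weigh on these values. Thinned cells gave 0.66 and 0.48 (WT), 0.69 and 0.82 (3AKO), and 0.13 and 0.04 (3BKO) for Dppa4 and Dppa5a. At day 3, unthinned, this pair gave 0.86 and 0.79 in WT. By label it gave -0.03 and 0.20 in 3AKO and 0.77 and 0.46 in 3BKO. Low values were thus not limited to 3BKO at day 9.

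**Figure D4:**
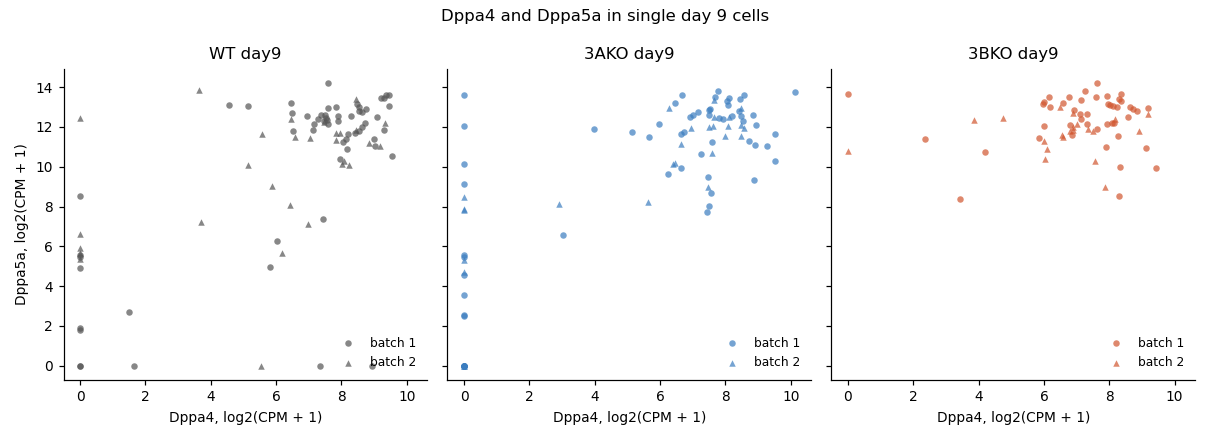
Dppa4 (horizontal axis) against Dppa5a (vertical axis) in each day 9 cell, both as log2(CPM + 1), with a panel for each genotype and a marker shape for each batch. WT and 3AKO have cells low in both genes at the lower left, while every kept 3BKO cell has Dppa5a at 326 CPM or more.

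The 3 genes were also near the top of each other's lists of like genes. With every cell centred on the mean of its library, the genes whose log2(CPM + 1) was most like that of Dppa2 over 486 cells were Dppa5a (r = 0.61) and Dppa4 (0.59), out of 10040 genes. For Dppa4 they were Dppa5a (0.66) and Dppa2 (0.59), followed by Zfp990, Ifitm1 and Tdh. For Dppa5a they were Zfp42 (0.70), a marker of naive pluripotency also known as Rex1, Ifitm1 (0.69), Chchd10, Ooep (0.66) and Dppa4 (0.66). For Dppa3 no gene exceeded 0.31 (Rhox6).

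Over the 12 library sums, in which genotype, day and batch all enter, the lists held other genes. The highest r to Dppa2 was 0.93 for Dpp4, followed by Trp53inp1, Hat1, Zcchc10 and Cep55, while Dppa4 was at -0.49. The highest to Dppa4 was 0.98 for Atp5j2, followed by Nob1, Atp5g1, Copz1 and Mrps23, and the highest to Dppa5a was 0.95 for Mybl2, followed by Gart, Trmt61a, Gatad2a and Pgd. For Dppa3, whose sums rest on few cells, they were Paics (0.92), Dazap2, Tspan3, Mfap2 and Cd63.

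Genes of the 2-cell embryo, the programme that DPPA2 and DPPA4 are known to switch on through Dux, were read almost entirely in 3BKO at day 9. The list held 18 genes found in the table, and their summed level was 1073 and 1342 CPM in the 3BKO day 9 libraries, 0.101 to 28.95 CPM in 3AKO and 0 to 0.219 CPM in WT. None reached 20% of cells in both batches of any day 9 comparison, so none counted toward the calls. Most of the sum came from the Zscan4 genes, a cluster of near-identical zinc finger genes whose transcripts shared 34.2% to 84.5% of their 75-base windows with other genes, so levels of single copies are uncertain. No Zscan4 read was found at day 3.

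Zscan4 reads were found in 15 of 67 3BKO cells, 3 of 88 3AKO cells and 1 of 89 WT cells at day 9. These cells were not thinned, and depth differed. Median reads per cell in batch 2 were 692321 in 3BKO, 308227 in 3AKO and 374958 in WT. In batch 1 they were 302116, 221582 and 363538. The lowest of the 15 3BKO cells had 2 Zscan4 reads. The sum over 3BKO cells, 1067 CPM, was concentrated: 1 cell held 52.8% of the Zscan4 reads, and the 4 highest cells, from both batches, were at 6307 to 23700 CPM. Dppa2 was at 949, 1186 and 960 CPM in 3 of those 4 cells and at 109 CPM in the other one, while Dppa4 was at 17.4 to 196 CPM in the 4 cells. In the remaining 3BKO cells with Zscan4 reads Dppa2 was at 105 to 1098 CPM. A 3BKO cell of batch 2 with no Zscan4 read had Dppa2 at 922 CPM. The highest 3AKO cell for Zscan4, at 936 CPM, was the cell with 2367 CPM of Dppa2 named above. Duxf3, the Dux gene of this table, had 94 reads in 7 3BKO day 9 cells, 38 reads in 4 3AKO cells and 0 in WT, where the limit of 3 reads would be 0.0862 CPM.

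Among 3BKO day 9 cells, the Spearman rho between summed Zscan4 and Dppa2 was 0.21 in batch 1 (n = 46) and 0.61 in batch 2 (n = 21). For Dppa4 it was -0.32 and 0.06, and for Dppa5a -0.07 and 0.25. Most of these cells were tied at 0 for Zscan4. Dppa3 had no read in any of the 19 cells with Zscan4 reads.

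**Figure D5:**
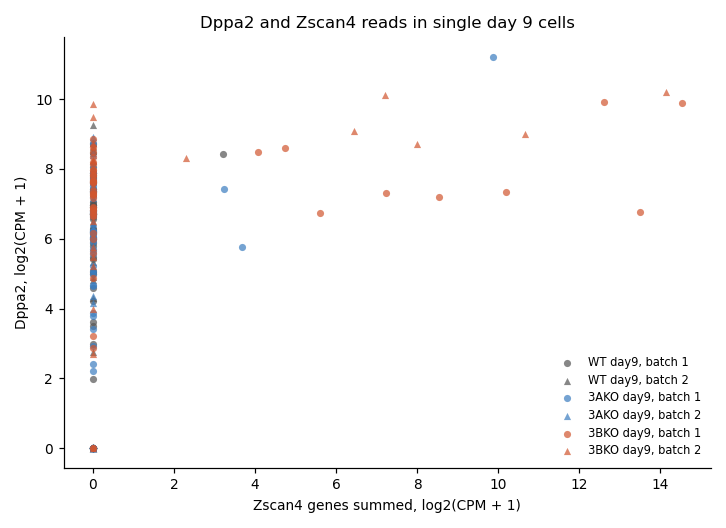
Summed Zscan4 genes (horizontal axis) against Dppa2 (vertical axis) in each day 9 cell, both as log2(CPM + 1), coloured by genotype and shaped by batch. Cells with Zscan4 reads are 15 of 3BKO, 3 of 3AKO and 1 of WT, and each of them has Dppa2 at 53.01 CPM or more.

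Other lists of genes tied to the members at day 9 moved in part with Dppa2. Of 13 tested naive pluripotency genes, 4 were called higher in 3BKO than in WT (Zfp42, Klf4, Klf5 and Tbx3) and 0 lower, with a median log2 ratio of 0.84 beside -0.08 for all genes. Over all genes tested, 2.86% were called higher and 4.98% lower. Zfp42 was at 2269 CPM in 3BKO and 962.9 CPM in WT (log2 ratio 1.24). Nanog, a core factor of the pluripotent state close to Dppa3, was at 1004 and 561.2 CPM (0.84), below a call, and Tdh, an enzyme of threonine use in ESCs, was lower, at 388.7 and 577.0 CPM (-0.57). Against 3AKO, 6 of 13 were called higher in 3BKO, Nanog among them, beside 4.56% of all genes tested. Between 3AKO and WT, 0 of 12 were called, with Zfp42 at a log2 ratio of -1.06.

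Of 8 tested genes of primordial germ cells, the lineage in which Dppa3 is a classic marker, 3 were called higher in 3BKO than in WT at day 9: Prdm14 (log2 ratio 1.22) and Tfap2c (1.11), regulators of germ cell specification, and Dazl (2.59), an RNA-binding protein of germ cells. Over all genes tested, 2.86% were called higher. The summed level of the 10 genes on this list overlapped, at 1426 to 2376 CPM in the WT libraries and 1418 to 2481 CPM in 3BKO. Ifitm3, also a marker of early germ cells, was at -1.08 without a call, since batch 1 gave -0.64. Dazl was the 1 of these genes called in 3AKO as well (2.58). Of the genes for partners of DPPA3 in DNA methylation, none of the 4 tested was called in 3BKO against WT: Uhrf1 had a log2 ratio of -0.55, Dnmt1 -0.99, Tet1 0.08 and Tet2 0.31.

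Marker lists of differentiated cells differed in level between the day 9 groups. The 10 meso-endoderm markers summed to 49.4 to 63.3 CPM in the WT libraries, 53.2 to 130.9 CPM in 3AKO and 17.7 to 44.5 CPM in 3BKO. Of the 10, 9 had reads in WT, 9 in 3AKO and 6 in 3BKO, and only 1 was tested in 3BKO against WT. That gene went against the sums, with a log2 ratio of 1.27, and was not called. The 7 markers of extra-embryonic endoderm summed to 27.2 to 222.9 CPM in WT, 11.6 to 136.01 CPM in 3AKO and 9.05 to 9.83 CPM in 3BKO, so that both 3BKO libraries lay below the other 4. None of the 7 was read in enough cells to be tested in 3BKO against WT. The 10 neuroectoderm markers were led by Tubb3. They summed to 121.8 to 214.8 CPM in WT, 131.1 to 192.1 CPM in 3AKO and 104.4 to 242.1 CPM in 3BKO, which overlap. Of these 10, 9 had reads in WT, 10 in 3AKO and 4 in 3BKO, where Sox1, Nes, Hes5, Zic1, Fabp7 and Map2 were at 0. Fewer markers with reads in 3BKO were thus not particular to meso-endoderm. The 7 trophoblast markers summed to 0.167 to 13.8 CPM over the day 9 libraries, with Cdx2 at 0 in all 3 genotypes. The 3 core pluripotency genes Sall4, Pou5f1 and Sox2 summed to 234.7 to 305.5 CPM in WT, 225.4 to 273.7 CPM in 3AKO and 437.2 to 527.1 CPM in 3BKO. Their part in the differences of the Dppa genes was not tested.

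Neighbours within 100 kb of the members differed in their patterns. Near Dppa5a, Ooep was at 133.3 CPM in 3BKO, 89.99 CPM in 3AKO and 82.9 CPM in WT at day 9, with log2 ratios of 3BKO to WT of 0.82 and 0.89 in the batches. The other neighbours of Dppa5a were below 54 CPM in every group, most of them near 0. Near Dppa3, Slc2a3, a glucose transporter, was at 1170 CPM in 3BKO and 504.9 CPM in WT (log2 ratio 1.21), and Gdf3, a signal of the TGF-beta family, at 191.9 and 264.0 CPM (-0.46). Beyond Dppa4, the other neighbour of Dppa2, Gm5485, was at 0 to 0.132 CPM. Morc1, a germline gene just past that distance that was picked after its values were seen, was at 182.3 and 278.0 CPM in 3BKO and 111.1 and 136.8 CPM in WT at day 9.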

How the data were processed

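The authors deposited read counts per gene name, with no normalization. Per the labels and methods, 75-base single-end Smart-seq2 reads were trimmed (Trim Galore 0.5.0), aligned to GRCm38 (STAR 2.7.1a) and counted over GENCODE exons (featureCounts 1.6.1). Use of strand is not given in the sources used here. The 26 columns of empty and mini-bulk wells were not used.

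Cells with under 50000 reads, under 2000 genes or over 50% mitochondrial reads were removed, and 486 remained. Counts were summed per group and batch (Python 3.11.15, scipy 1.17.1). Ratios used a pseudocount of 1 CPM. With 1 sample per group there was no test over cells. The call rule was tested on simulated counts with the same spread for every gene and no batch differences. That does not show its error rate in these data. RPKM used union exon lengths of GENCODE vM21, in which 97.0% of gene names were found. Members and lists were chosen with earlier results of these data known. Named genes were the members, Dnmt3a and Dnmt3b, up to 4 genes of each list by WT day 9 level or those called, the 5 most like each member, and neighbours within 100 kb. Promoter and protein sequences of the members were not used here. Doublets were not looked for, as 1 cell was sorted per well.

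Alternatives were no or a stricter cell filter (100000 reads, 4000 genes, 25% mitochondrial), each batch alone, means of single-cell CPM, thinned cells, sums without each library's top cell for that gene, totals without mitochondrial genes and Gm42418, TMM (edgeR 4.0.16) and median-ratio (DESeq2 1.42.0) factors, pseudocounts of 0.1 or 10 CPM, and a detection minimum of 10% or 40%.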

Additional observations from a re-analysis of the deposited data

How the results depend on the processing

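Over 8 comparisons and 14 alternatives each, the count of called members was the same in 108 of 112 cases. None of the alternatives exchanged the day 3 labels of batch 2. Dppa2 was called in 3BKO against WT at day 9 under all 14 alternatives, with a log2 ratio of 1.25 to 1.62. Some of these could not undo the call: the rule already asks for each batch alone, and the detection minimums do not change a ratio. The count went from 0 to 1 in 4 cases: Dppa2 in 3BKO against 3AKO at day 9 in batch 2 alone and without the cell with the most reads in each library, Dppa5a (lower) in 3AKO at day 9 against day 3 in batch 1 alone, and Dppa2 in 3BKO at day 9 against day 3 in batch 1 alone. Fewer libraries or cells enter these by construction. The 3 members with a higher share of cells in 3BKO than in both other genotypes at day 9 were Dppa2, Dppa4 and Dppa5a. They were the same with at least 2 or 5 reads, without thinning and with the stricter filter. Shares of cells without the cell filter were not computed. Ratios left their counting interval under 66 of 96 alternatives for Dppa5a, whose interval is narrow, and 41 of 96 for Dppa2. Dppa3 ratios ranged from -4.19 to 0.15 in 3BKO against 3AKO at day 9, with reads in 0 to 4 cells per library. No paired analysis was possible because the batches are shared by all groups but each group is 1 sample, so values are given by batch.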
